A study of Mus musculus with 6 samples.

Results

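The genes of DNA replication and of entry into S phase were described in 6 mouse leg tumors driven by a human synovial sarcoma fusion oncogene. The set holds 37 named genes, all of which were found among the 17312 genes of the expression table by their symbols, and all 37 passed the filter on low values. The genes were listed by function and the rule uses no measured value, but the members were chosen with earlier results of these data known. The SS18-SSX2 group was 3 tumors of mice carrying a Cre-lox inducible allele of SS18-SSX2, and the SS18-SSX1 group was 3 tumors of mice carrying such an allele of SS18-SSX1. The fusion protein carries SS18, which belongs to BAF, a remodeller of nucleosomes, and the tail of an SSX protein. In all 6 tumors the allele was switched on by TATCre (Cre recombinase joined to a cell-entry peptide) injected into the soft tissue before the shin, and tumors were taken about 1 year later with no other treatment. The labels do not give the promoter that drives either allele or say whether each tumor came from a separate mouse, so p-values measure the spread between these samples only. Values are FPKM, fragments per kilobase of transcript, scaled to library size, and values of a genotype are given in the order of tumors 1, 2 and 3.

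Replication starts at origins, where the origin recognition complex, Cdc6 and Cdt1 load a ring of the proteins Mcm2 to Mcm7 onto DNA in G1 phase. Cyclin E and the E2F transcription factors drive the step into S phase, in which Cdc45 and the GINS proteins turn the loaded ring into a moving helicase, and DNA polymerases, the PCNA clamp and the nucleotide-making enzymes copy the genome behind it. Many of these genes are E2F targets, transcribed from late G1, and their RNA is widely used as a sign of proliferating cells in tumors.

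Because the genes share this regulation, the stretch of DNA before each gene start was searched for E2F motifs. RefSeq promoter sequences (build GRCm38.p6) were matched for 30 of the 37 genes, with 34 windows of 250 bases before a gene start. An E2F site, taken as TTTCCCGC, TTTGGCGC, TTTCGCGC or TTTGCCGC on either strand, was in 8 of the 34 windows (23.5%), against 611 of all 32851 windows in the table (1.86%) and 3.25% of the windows of tested genes. The 8 genes belong to origin recognition and helicase loading (Orc1, Cdc6, Mcm5, Mcm6, Mcm7), helicase activation (Gins3), the polymerases (Pola1) and the clamp loader (Rfc3). The stretches around the letters are shown for the 4 genes in which at most 30 of their bases lie in annotated exons, on the strand of the gene. Letters of the E2F site are in capitals and nearby bases in lower case. The shorter E2F letters given below are not marked where they fall outside a site, as in Pola1 and Mcm5.
Mcm6, chr1:128359709-128359851, minus strand: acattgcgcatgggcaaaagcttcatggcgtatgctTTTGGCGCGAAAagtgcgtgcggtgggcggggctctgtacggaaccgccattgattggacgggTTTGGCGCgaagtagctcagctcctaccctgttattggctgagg
Mcm5, chr8:75109320-75109403, plus strand: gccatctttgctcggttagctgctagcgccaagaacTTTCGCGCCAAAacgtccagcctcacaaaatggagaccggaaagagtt
Cdc6, chr11:98907977-98908056, plus strand: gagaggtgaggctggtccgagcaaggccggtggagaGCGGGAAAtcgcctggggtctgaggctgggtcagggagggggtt
Pola1, chrX:93632250-93632329, minus strand: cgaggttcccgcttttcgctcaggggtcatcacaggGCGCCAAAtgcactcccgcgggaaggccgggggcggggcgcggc
Mcm6 held 3 matches, 2 of them overlapping, and Mcm5 held 2 overlapping matches, read from opposite strands. Counted from the RefSeq start of each window, the nearest site was that of Rfc3, which began 10 bases before it, and the farthest was that of Mcm7, at 165 bases. Against the earliest start in the GENCODE M21 annotation, the stretches of Mcm6, Mcm5 and Pola1 lie before it, those of Orc1 and Rfc3 across it, and those of Mcm7, Gins3 and Cdc6 after it. The shorter E2F letters TTCCCGC or TTGGCGC, which lie inside part of the site's words, were in 29.4% of the 34 windows, 5.62% of all windows and 9.76% of the windows of tested genes. The CCAAT box was in 52.9%, against 33.8% of all windows and 35.1% of those of tested genes. The CHR element of mitotic genes, TTTGAA or TTCGAA, was in 17.6%, against 17.1% and 11.9%. A match describes the letters of a window and is not evidence of binding.

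The depth of the libraries, estimated from the spacing of low FPKM values, was 14529847, 7285853 and 14357648 reads for the SS18-SSX2 tumors and 13316363, 13767916 and 17546227 for the SS18-SSX1 tumors, so that 1 read in a transcript of 1 kb was worth 0.0570 to 0.137 FPKM. For the 23 of 37 genes whose values were whole reads with the annotated exon length (within 0.05 reads in every tumor), the fewest reads in a tumor were 18, for Gins1 in SS18-SSX2 tumor 2. Of 6 genes used as synovial sarcoma markers, 5 were measured, and their mean log2(FPKM + 1) was 5.01, 4.24 and 4.95 in SS18-SSX2 tumors and 5.31, 4.94 and 4.75 in SS18-SSX1 tumors. The tumors differed more in the RNA of other cells, which was highest for muscle in tumor 2 of each genotype. The 20 skeletal muscle fibre markers averaged 2.27, 6.45 and 2.37 in SS18-SSX2 tumors and 3.16, 7.59 and 3.34 in SS18-SSX1 tumors, and 1 of them, the slow myosin Myh7, was listed at 0 in at least 1 tumor. Ckm, the muscle creatine kinase, had 7.88, 556 and 12.01 FPKM in SS18-SSX2 tumors against 32.4, 1285 and 69.9 FPKM in SS18-SSX1 tumors. Mast cell markers averaged 7.14 in SS18-SSX1 tumor 3 and 1.27 to 3.21 in the other 5 tumors. Lymphocyte markers, 5 of whose 12 genes were at 0 in at least 1 tumor, averaged 0.55, 3.31 and 0.60 in SS18-SSX2 tumors and 0.42, 1.68 and 0.56 in SS18-SSX1 tumors. Endothelial markers were lowest in tumor 2 of each genotype, with 3.64, 2.10 and 3.40 in SS18-SSX2 tumors and 3.48, 1.74 and 2.95 in SS18-SSX1 tumors. The Y-linked Ddx3y was at 0 to 0.0148 FPKM in SS18-SSX2 tumors and at 28.2 to 35.2 FPKM in SS18-SSX1 tumors, and the labels give no sex, so that differences by sex and by fusion cannot be told apart here.

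No gene of the set was called between the genotypes. In bulk RNA, fewer cells in cycle, less RNA per cell and a larger share of RNA from other cells cannot be told apart. A level here stands for all of these. In a fit over all genes with limma, 0 of the 37 passed a Benjamini-Hochberg adjusted p of 0.05 (every adjusted p was 0.997) and 0 had an unadjusted p under 0.05, against 9 of 13873 tested genes (0.0649%) that passed (0.0432% with the higher mean in SS18-SSX2 tumors, 0.0216% with the lower) and 4.97% with an unadjusted p under 0.05 (3.26% higher). Mean levels were higher in SS18-SSX2 tumors for 27 of the 37 genes and lower for 10, where 51.1% of all tested genes were higher. The median log2 fold change, taken as SS18-SSX2 less SS18-SSX1 with 1 added to each FPKM, was 0.21 over the 37 genes and 0.01 over all tested genes, with a range of -0.47 for Mcm4 to 0.62 for Rrm2. The top of this range depends on the 1 added to each FPKM, since with 0.1 added Mcm10 was highest, at 0.96, against 0.66 for Rrm2. The groups of tumors did not overlap for 1 of the 37 genes, Dut, where 8.72% of all tested genes did not overlap. The 95% interval of the difference reached a 2-fold change in one or the other direction for 23 of the 37 genes, and for 54.8% of tested genes, so differences of that size cannot be set aside for most of them. The median depended on single tumors and on the fit. With limma weights per tumor it was 0.47, 33 of 37 genes were higher, 8 had an unadjusted p under 0.05 (Mcm10, Dut, Rrm2, Lig1, Ccne1, Tk1, Cdc6 and E2f1) and 0 passed, the lowest adjusted p being 0.364. The count with an unadjusted p under 0.05 was 4 when SS18-SSX2 tumor 2 was left out, 3 when SS18-SSX1 tumor 3 was and 1 when SS18-SSX1 tumor 1 was. The share of 4.97% belongs to the main fit. The share of all tested genes under 0.05 is not given for the weighted and leave-one-out fits. Their counts thus have no background here and are not a result about this set. Over all tested genes, the number that passed also rose with the weights, from 9 to 16. Without SS18-SSX2 tumor 1 the median was 0.11, and it was 0.42 without tumor 2 and 0.02 without tumor 3 of that genotype. Leaving out SS18-SSX1 tumors 1, 2 or 3 in turn gave 0.36, 0.04 or 0.25.

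**Figure D1:**
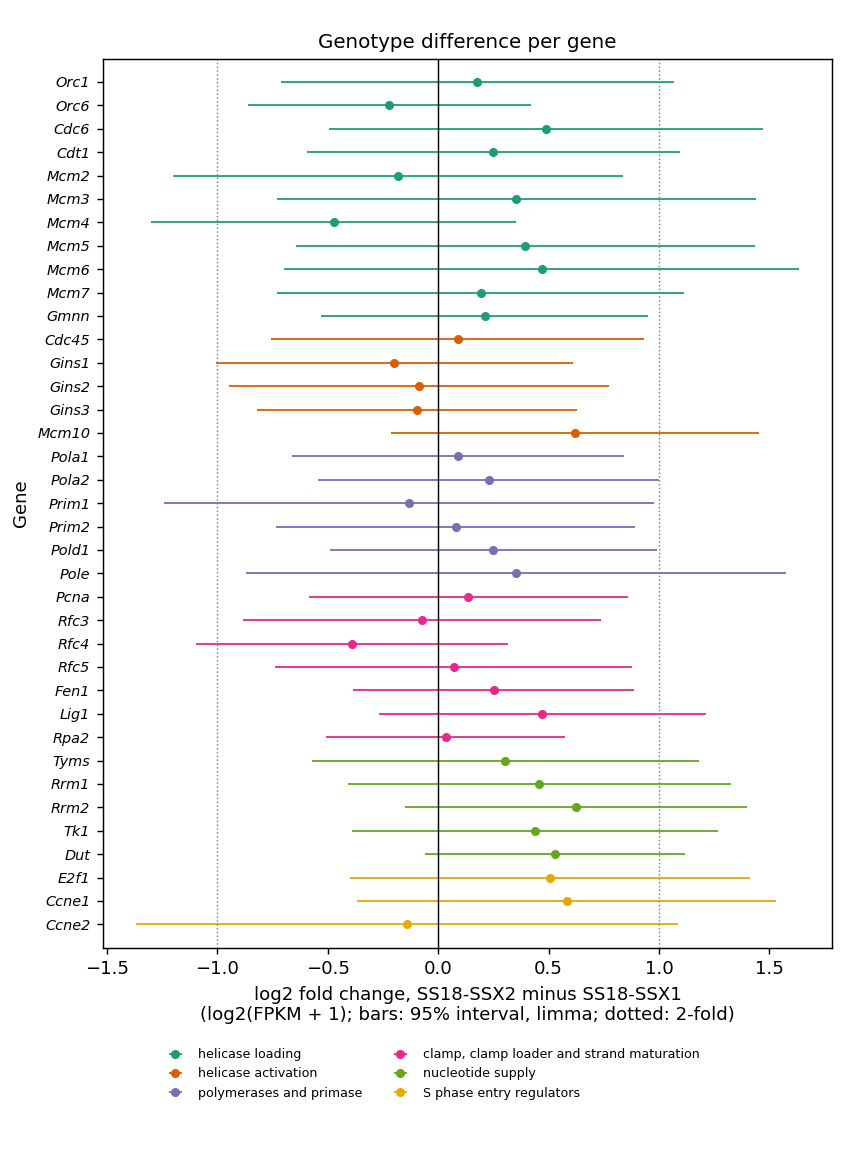
Log2 fold change of each of the 37 genes (horizontal axis, SS18-SSX2 minus SS18-SSX1, log2(FPKM + 1)) with its 95% interval from limma, by role, with dotted lines at a 2-fold change. Every interval includes 0, and the estimates lie between -0.47 and 0.62.

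Differences between tumors of 1 genotype were larger than those between genotypes. Averaged over the 37 genes, log2(FPKM + 1) was 3.72, 2.97 and 3.70 in SS18-SSX2 tumors and 3.44, 2.87 and 3.53 in SS18-SSX1 tumors. Tumor 2 was thus the lowest of both genotypes, and it was the lowest of its 3 for 33 of 37 genes in SS18-SSX2 tumors and for 32 of 37 in SS18-SSX1 tumors. Both held for 29 of the 37 genes, where they held for 14.3% of tested genes. The pattern was not particular to this set. In the lists described below, both held for 15 of 16 mitosis genes, 29 of 44 other replication genes and 7 of 17 other S phase entry genes. Among the markers above, they held for 7 of 8 endothelial and 2 of 5 synovial sarcoma genes, and for 0 muscle, mast cell and lymphocyte genes. The tumors numbered 2 are those with the high muscle values given above, and the part of muscle RNA in the low values was not tested. The highest value of a gene fell in SS18-SSX2 tumor 3 for 15 genes, in SS18-SSX2 tumor 1 for 11, in SS18-SSX1 tumor 3 for 8 and in SS18-SSX1 tumor 1 for 3, and in neither tumor 2 for any. Between the 2 muscle-rich tumors alone, the median difference (SS18-SSX2 minus SS18-SSX1, log2) was 0.11 and 21 of 37 genes were higher in SS18-SSX2. Between tumors 1 and 3 of each genotype it was 0.32, with 27 of 37 genes higher in SS18-SSX2. With the muscle level as a covariate in the fit, the median was 0.08 and 21 of 37 were higher. In that fit 1 gene (Mcm4) had an unadjusted p under 0.05 and 0 passed. The share of all tested genes under 0.05 is not given, so this count has no background either.

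**Figure D2:**
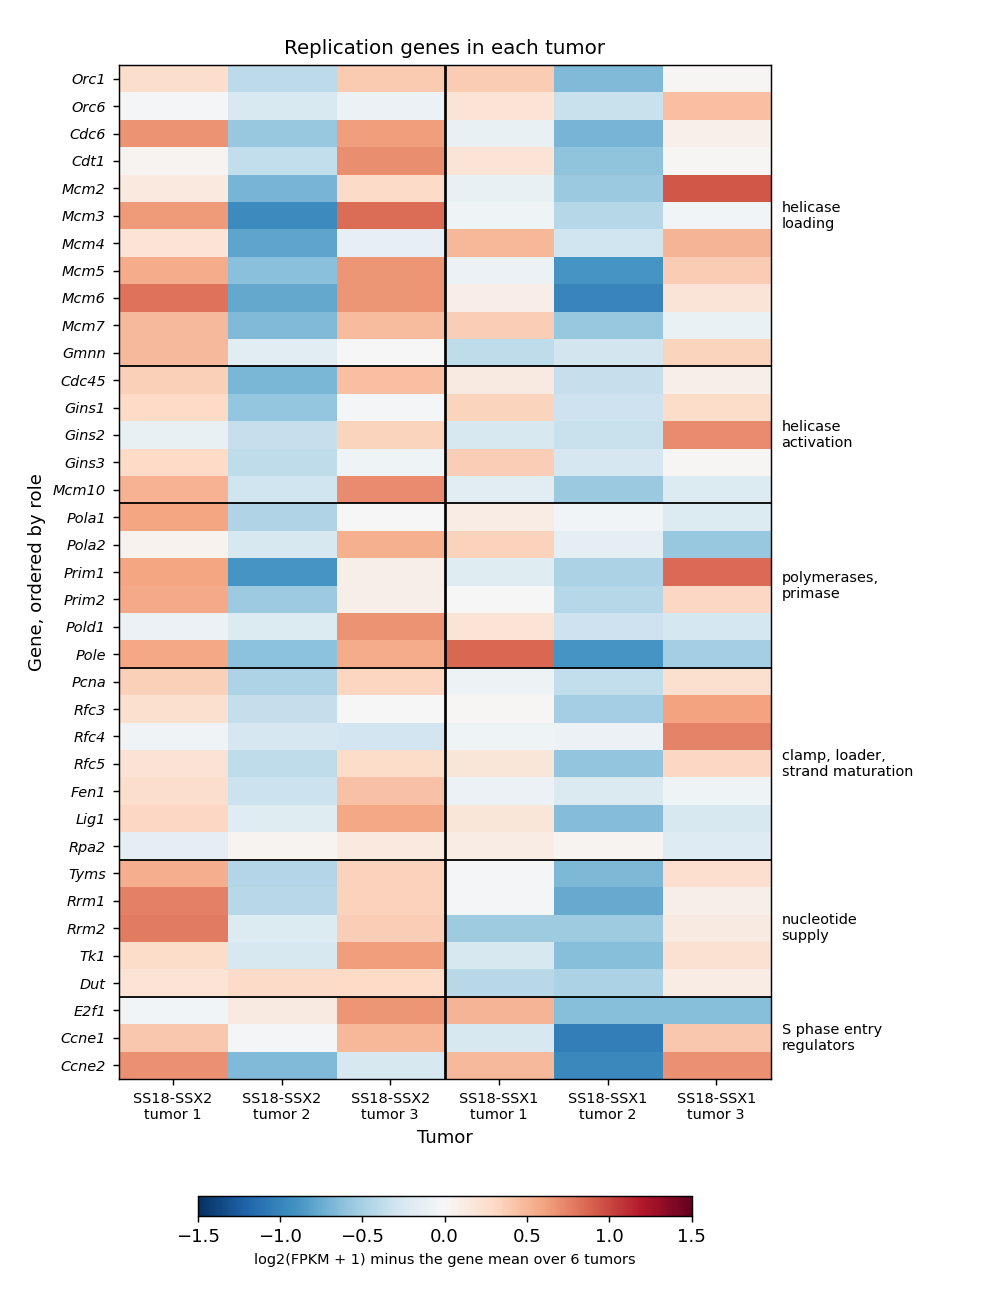
Level of each gene in each tumor as log2(FPKM + 1) minus the mean of that gene over the 6 tumors, with SS18-SSX2 tumors left and SS18-SSX1 tumors right and genes ordered by role. Tumor 2 of each genotype is below the gene mean for most genes, and Rpa2 is nearly even across the tumors.

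Among the proteins that mark origins and load the helicase, levels ran from 1.86 FPKM for Orc1, the largest origin recognition subunit, to 52.5 FPKM for Mcm6, as means over the 6 tumors. Orc1 had 2.31, 1.10 and 2.62 FPKM in SS18-SSX2 tumors and 2.59, 0.752 and 1.79 FPKM in SS18-SSX1 tumors, which overlap. Orc6, the smallest subunit of the same complex, had 13.7, 11.6 and 13.02 FPKM in SS18-SSX2 tumors and 16.2, 10.8 and 19.4 FPKM in SS18-SSX1 tumors. The SS18-SSX2 values lie inside the range of the SS18-SSX1 values. Cdc6, the ATPase that recruits the ring to the origin, had 4.16, 1.18 and 3.996 FPKM in SS18-SSX2 tumors against 2.00, 1.00 and 2.40 FPKM in SS18-SSX1 tumors. Its 2 highest tumors were SS18-SSX2 tumors 1 and 3, but SS18-SSX2 tumor 2 was below 2 of the SS18-SSX1 tumors (log2 fold change 0.49, SE 0.42). Cdt1, the partner of Cdc6 in loading, had 9.05, 6.52 and 14.9 FPKM in SS18-SSX2 tumors and 10.3, 5.41 and 8.88 FPKM in SS18-SSX1 tumors. Gmnn encodes geminin, which binds Cdt1 and blocks a further round of loading, and had 8.97, 5.34 and 6.13 FPKM in SS18-SSX2 tumors and 4.46, 4.91 and 8.01 FPKM in SS18-SSX1 tumors. In this role 8 of 11 genes had higher means in SS18-SSX2 tumors, 3 had lower ones and 0 passed, with a median log2 fold change of 0.21.

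The MCM ring contains 1 copy of each subunit, while the RNA of the 6 subunits was uneven in every tumor. Mcm6 (ENSMUSG00000026355, chromosome 1 from 128331590 to 128359664 on GRCm38, minus strand) had 83.7, 27.4 and 75.5 FPKM in SS18-SSX2 tumors and 50.7, 23.3 and 54.5 FPKM in SS18-SSX1 tumors. Its means were 62.2 ± 30.4 FPKM in SS18-SSX2 tumors and 42.8 ± 17.04 FPKM in SS18-SSX1 tumors (SD, n = 3 each), a log2 fold change of 0.47 (SE 0.50, 95% interval -0.70 to 1.63). Mcm3 had 49.4, 15.6 and 56.9 FPKM in SS18-SSX2 tumors against 29.8, 23.05 and 30.5 FPKM in SS18-SSX1 tumors. For both genes tumors 1 and 3 with SS18-SSX2 were above every SS18-SSX1 tumor, and tumor 2 with SS18-SSX2 was among the 2 lowest of the 6. Mcm5 had 33.4, 14.2 and 36.01 FPKM in SS18-SSX2 tumors and 20.96, 11.7 and 29.5 FPKM in SS18-SSX1 tumors. Mcm2 had 39.2, 21.5 and 43.4 FPKM in SS18-SSX2 tumors and 32.8, 23.9 and 68.6 FPKM in SS18-SSX1 tumors, the highest value being that of SS18-SSX1 tumor 3, the tumor with high mast cell markers. Mcm4 had 39.2, 19.1 and 30.97 FPKM in SS18-SSX2 tumors and 48.3, 27.4 and 48.6 FPKM in SS18-SSX1 tumors, the lowest fold change of the set, at -0.47 (SE 0.36, 95% interval -1.30 to 0.35). Mcm7, at 7.72 to 18.2 FPKM in SS18-SSX2 tumors and 8.32 to 16.8 FPKM in SS18-SSX1 tumors, was the lowest of the 6 subunits in all 6 tumors. The highest subunit was Mcm6 in all SS18-SSX2 tumors and in SS18-SSX1 tumor 1, Mcm4 in SS18-SSX1 tumor 2 and Mcm2 in SS18-SSX1 tumor 3. The highest subunit exceeded the lowest 4.59-, 3.55- and 4.17-fold in SS18-SSX2 tumors and 3.01-, 3.29- and 5.77-fold in SS18-SSX1 tumors. Subunits thus did not keep 1 order across the tumors, apart from Mcm7.

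**Figure D3:**
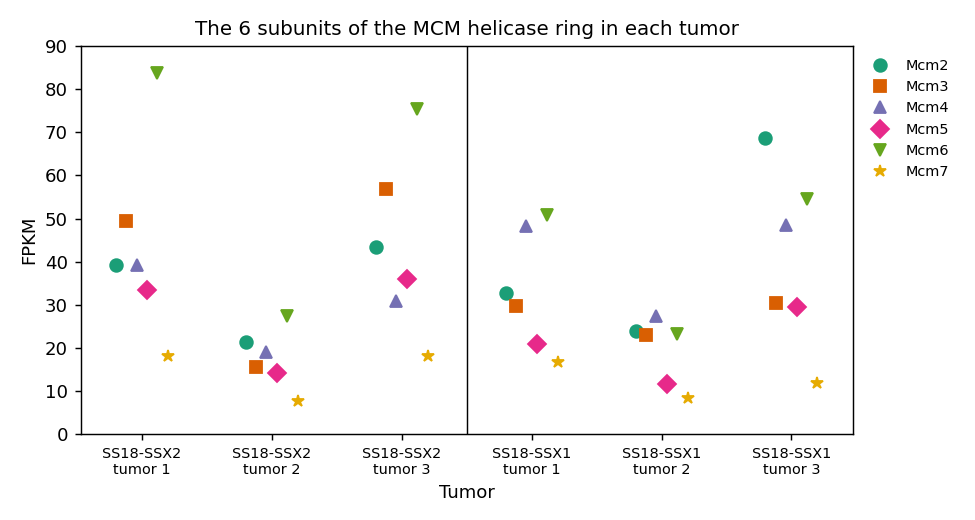
FPKM of the 6 subunits of the MCM ring (vertical axis) in each tumor (horizontal axis), with a symbol per gene. Mcm7 is lowest in every tumor, and Mcm6 is highest in all except SS18-SSX1 tumors 2 and 3.

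Of the factors that activate the loaded ring, Mcm10 and the GINS genes averaged under 5 FPKM and Cdc45 averaged 8.79 FPKM, near the median of the set, 9.16 FPKM. Cdc45, which joins the ring with GINS, had 11.1, 4.88 and 11.97 FPKM in SS18-SSX2 tumors and 9.37, 6.42 and 9.01 FPKM in SS18-SSX1 tumors. Of the GINS subunits, Gins1 had 3.81, 1.63 and 2.89 FPKM in SS18-SSX2 tumors and 3.96, 2.16 and 3.76 FPKM in SS18-SSX1 tumors. Gins2 had 3.93, 3.22 and 5.73 FPKM in SS18-SSX2 tumors and 3.54, 3.23 and 7.72 FPKM in SS18-SSX1 tumors. The 3 GINS genes had slightly negative fold changes, between -0.20 and -0.09, none larger than its SE. Gins3 had 5.79, 3.24 and 4.30 FPKM in SS18-SSX2 tumors and 6.16, 3.64 and 4.61 FPKM in SS18-SSX1 tumors. Mcm10, which helps the helicase to start unwinding and is no subunit of the ring, was the least abundant of the 37 genes, with 2.49, 0.981 and 2.99 FPKM in SS18-SSX2 tumors and 1.17, 0.652 and 1.12 FPKM in SS18-SSX1 tumors. SS18-SSX2 tumors 1 and 3 were above all SS18-SSX1 tumors, and SS18-SSX2 tumor 2 was not. Its means were 2.15 ± 1.04 FPKM in SS18-SSX2 tumors and 0.981 ± 0.286 FPKM in SS18-SSX1 tumors (SD, n = 3 each). The log2 fold change of Mcm10 was 0.62 (SE 0.36, 95% interval -0.21 to 1.45, limma adjusted p = 0.997), on 55 reads in the tumor with the fewest. In this role 2 of 5 genes had higher means in SS18-SSX2 tumors and 0 passed, with a median of -0.09.

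The polymerases and primase did not move as a block. Pole, the catalytic subunit of the leading-strand polymerase epsilon, had 10.8, 4.14 and 10.5 FPKM in SS18-SSX2 tumors and 13.3, 3.25 and 4.53 FPKM in SS18-SSX1 tumors. Its highest value was in SS18-SSX1 tumor 1, where Pola2 and Pold1 were also the highest of the SS18-SSX1 tumors. Pold1, the catalytic subunit of polymerase delta, had 10.1, 9.18 and 17.8 FPKM in SS18-SSX2 tumors and 12.6, 8.46 and 8.82 FPKM in SS18-SSX1 tumors. Pola2, the accessory subunit of polymerase alpha, had 11.7, 9.37 and 16.8 FPKM in SS18-SSX2 tumors and 14.7, 10.2 and 7.32 FPKM in SS18-SSX1 tumors. The primase subunits followed another order of tumors. Prim1, the catalytic primase subunit, had 15.5, 4.93 and 10.6 FPKM in SS18-SSX2 tumors and 8.62, 6.87 and 18.7 FPKM in SS18-SSX1 tumors, so that SS18-SSX1 tumor 3 was highest for Prim1 and lowest for Pola2. Prim2, the large primase subunit, had 20.8, 9.08 and 14.6 FPKM in SS18-SSX2 tumors and 13.7, 9.87 and 17.2 FPKM in SS18-SSX1 tumors. Pola1, the catalytic subunit of polymerase alpha, lies on chromosome X and had 11.3, 4.97 and 7.11 FPKM in SS18-SSX2 tumors and 7.81, 6.91 and 6.10 FPKM in SS18-SSX1 tumors, with a log2 fold change of 0.09 (SE 0.32). Means were higher in SS18-SSX2 tumors for 5 of the 6 genes, with a median log2 fold change of 0.16, and 0 passed.

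Pcna, the sliding clamp that holds polymerases on DNA, was among the steadier genes. It had 24.5, 13.4 and 23.9 FPKM in SS18-SSX2 tumors and 17.9, 14.5 and 22.5 FPKM in SS18-SSX1 tumors, a log2 fold change of 0.14 (SE 0.31, 95% interval -0.58 to 0.86). A pseudogene copy, Pcna-ps2, was listed at 0.328 to 1.53 FPKM in SS18-SSX2 tumors and 0.404 to 0.997 FPKM in SS18-SSX1 tumors, and reads shared between the copies cannot be resolved here. Lig1, the ligase that seals Okazaki fragments, had 17.2, 11.9 and 20.9 FPKM in SS18-SSX2 tumors and 15.7, 8.33 and 11.4 FPKM in SS18-SSX1 tumors. Fen1, the nuclease that trims their flaps, had 16.5, 10.7 and 18.9 FPKM in SS18-SSX2 tumors and 12.8, 11.5 and 12.9 FPKM in SS18-SSX1 tumors. In both genes SS18-SSX2 tumors 1 and 3 were above all SS18-SSX1 tumors and tumor 2 was not. The log2 fold change of Lig1 was 0.47 (SE 0.32, 95% interval -0.27 to 1.21). The clamp loader subunits Rfc3, Rfc4 and Rfc5 had their highest value in SS18-SSX1 tumor 3. Rfc3 ran from 5.85 to 9.40 FPKM in SS18-SSX2 tumors and from 5.15 to 12.4 FPKM in SS18-SSX1 tumors, and Rfc5 from 3.82 to 6.58 FPKM in SS18-SSX2 tumors and from 3.16 to 6.76 FPKM in SS18-SSX1 tumors. For Rfc4 it was 15.3 FPKM, against 8.39, 7.16 and 6.99 FPKM in SS18-SSX2 tumors and 8.27 and 8.14 FPKM in SS18-SSX1 tumors 1 and 2. Rpa2, a subunit of the single-strand binding protein RPA, varied least of the 37 genes, with 12.2, 13.9 and 15.1 FPKM in SS18-SSX2 tumors and 14.7, 13.9 and 11.7 FPKM in SS18-SSX1 tumors, a 1.30-fold range over all 6. It was not lower in either muscle-rich tumor than in the lowest of the others. In this role 5 of 7 genes had higher means in SS18-SSX2 tumors, the median log2 fold change was 0.07 and 0 passed.

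All 5 enzymes of nucleotide supply had higher means in SS18-SSX2 tumors, with log2 fold changes of 0.30 to 0.62 and a median of 0.46, and 0 of the 5 passed. Dut, the dUTPase that keeps uracil out of DNA (ENSMUSG00000027203, chromosome 2 from 125247190 to 125258608 on GRCm38, plus strand), had 16.2, 17.3 and 17.4 FPKM in SS18-SSX2 tumors and 10.2, 9.70 and 15.1 FPKM in SS18-SSX1 tumors. The lowest SS18-SSX2 tumor was just above the highest SS18-SSX1 tumor. The means were 16.9 ± 0.666 FPKM in SS18-SSX2 tumors and 11.6 ± 2.97 FPKM in SS18-SSX1 tumors (SD, n = 3 each). The log2 fold change was 0.53 (SE 0.25, 95% interval -0.06 to 1.12, limma unadjusted p = 0.0720, adjusted p = 0.997). Dut was thus not called by this test, and the interval includes 0. Rrm2, the small subunit of ribonucleotide reductase, which makes deoxynucleotides and is present mainly in S phase, had 30.7, 15.1 and 22.8 FPKM in SS18-SSX2 tumors and 11.8, 11.8 and 19.3 FPKM in SS18-SSX1 tumors. SS18-SSX2 tumors 1 and 3 were highest, and SS18-SSX2 tumor 2 fell between the SS18-SSX1 tumors. With means of 22.9 ± 7.81 FPKM in SS18-SSX2 tumors and 14.3 ± 4.34 FPKM in SS18-SSX1 tumors (SD, n = 3 each), its log2 fold change was the highest of the set with 1 added to each FPKM, though not with 0.1 added, at 0.62 (SE 0.33, 95% interval -0.15 to 1.40). Rrm1, the large subunit of the same enzyme, had 46.4, 20.1 and 34.9 FPKM in SS18-SSX2 tumors and 26.8, 15.7 and 28.8 FPKM in SS18-SSX1 tumors. Tyms, the thymidylate synthase, had 8.52, 3.81 and 7.29 FPKM in SS18-SSX2 tumors and 5.38, 3.08 and 6.76 FPKM in SS18-SSX1 tumors. Tk1, the thymidine kinase of the salvage route, had 4.79, 3.04 and 6.40 FPKM in SS18-SSX2 tumors and 3.05, 2.07 and 4.59 FPKM in SS18-SSX1 tumors. In 4 of the 5 genes the lowest tumor was SS18-SSX1 tumor 2, and for Rrm2 it was SS18-SSX1 tumor 1.

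The regulators of S phase entry had the widest spread of the 6 roles, with a median range between the highest and the lowest tumor of 4.21-fold, against 2.51-fold over all 37 genes. Ccne1, which encodes cyclin E1, had 4.602, 3.15 and 4.997 FPKM in SS18-SSX2 tumors and 2.60, 1.06 and 4.603 FPKM in SS18-SSX1 tumors, the widest range of the 37 genes at 4.70-fold. Ccne2, the gene for cyclin E2, had 8.49, 2.71 and 3.99 FPKM in SS18-SSX2 tumors and 7.24, 2.02 and 8.46 FPKM in SS18-SSX1 tumors. The 2 cyclin E genes differed in their order, as Ccne1 was highest in SS18-SSX2 tumor 3, where Ccne2 was below SS18-SSX1 tumors 1 and 3. E2f1, an activator among the E2F factors, had 6.52, 7.53 and 11.3 FPKM in SS18-SSX2 tumors and 10.02, 3.98 and 3.99 FPKM in SS18-SSX1 tumors. SS18-SSX1 tumor 1 was inside the range of the SS18-SSX2 tumors, and the other two were below it. The log2 fold changes were 0.58 for Ccne1 (SE 0.41), 0.51 for E2f1 (SE 0.39) and -0.14 for Ccne2 (SE 0.53), and 0 of the 3 passed.

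Ratios between partner genes within a tumor were compared for 6 pairs, as log2 of FPKM + 1. With 3 tumors a genotype, an exact permutation test allows no two-sided p under 0.1, and no ratio reached that value with 1 added to each FPKM. The log2 ratio of Mcm10 to the mean of Mcm2 to Mcm7 was -3.55, -3.14 and -3.35 in SS18-SSX2 tumors and -3.87, -3.53 and -4.11 in SS18-SSX1 tumors, a difference of 0.49 (exact permutation p = 0.2, adjusted over the 6 ratios 0.9). The groups overlapped by 1 pair of tumors, at -3.55 and -3.53. With 0.1 added to each FPKM the difference was 0.83 and with 0.5 it was 0.64, each with the smallest p the exact permutation test allows, 0.1, so that the overlap depends on this choice for the low values of Mcm10. The log2 ratio of Ccne2 to Ccne1 was 0.76, -0.16 and -0.27 in SS18-SSX2 tumors and 1.20, 0.55 and 0.76 in SS18-SSX1 tumors, a difference of -0.72 (exact permutation p = 0.3, adjusted 0.9). Ccne2 exceeded Ccne1 in all 3 SS18-SSX1 tumors and in 1 SS18-SSX2 tumor. The other 4 ratios differed by 0.17 or less in size, with exact permutation p from 0.5 to 0.9. The ratio of Gmnn to Cdt1 was -0.01, -0.25 and -1.15 in SS18-SSX2 tumors and -1.04, -0.12 and -0.13 in SS18-SSX1 tumors, so that 1 tumor of each genotype had clearly less Gmnn than Cdt1.

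**Figure D4:**
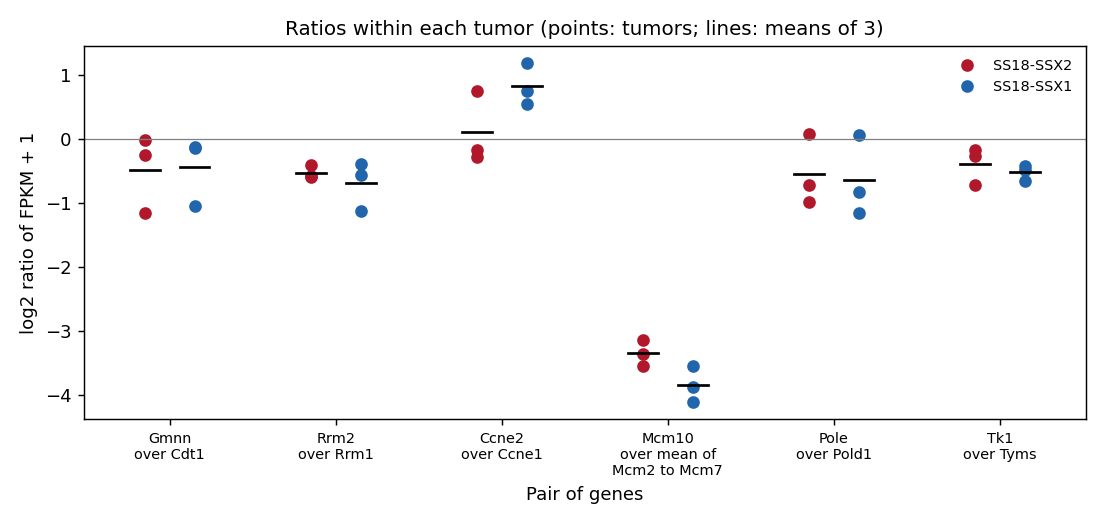
Log2 ratios of FPKM + 1 (vertical axis) between partner genes within each tumor, with a point per tumor and a line at the mean of the 3 tumors of a genotype. The groups overlap for all 6 pairs with 1 added, by the least for Mcm10 over the MCM ring genes.

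Of 44 other replication genes, all tested, 25 had higher means in SS18-SSX2 tumors, 19 had lower ones and 0 passed, and the median log2 fold change was 0.04. The 4 with the smallest p were Donson, a fork protein, and Uhrf1, Clspn and Chtf18. Donson had 7.89, 5.23 and 7.10 FPKM in SS18-SSX2 tumors and 13.7, 7.69 and 12.7 FPKM in SS18-SSX1 tumors (log2 fold change -0.65, SE 0.30, limma adjusted p = 0.997). Uhrf1, which guides maintenance of DNA methylation at the fork, had 22.4, 8.41 and 23.7 FPKM in SS18-SSX2 tumors and 9.56, 7.74 and 13.8 FPKM in SS18-SSX1 tumors. Clspn encodes claspin, an adaptor of the replication checkpoint, and had 6.75, 1.80 and 6.91 FPKM in SS18-SSX2 tumors and 3.58, 1.13 and 2.46 FPKM in SS18-SSX1 tumors. For both, SS18-SSX2 tumors 1 and 3 were the highest of the 6, and tumor 2 was among the 3 lowest. Chtf18, of an alternative clamp loader, had 5.74, 2.90 and 8.63 FPKM in SS18-SSX2 tumors and 4.67, 2.46 and 2.67 FPKM in SS18-SSX1 tumors. Of 17 other genes of S phase entry, 14 had higher means in SS18-SSX2 tumors, 3 had lower ones and 0 passed, with a median of 0.23. E2f8, an atypical E2F that represses E2F targets, had 4.17, 1.56 and 3.99 FPKM in SS18-SSX2 tumors and 1.67, 0.654 and 1.64 FPKM in SS18-SSX1 tumors (log2 fold change 0.83, SE 0.39, limma adjusted p = 0.997). Its relative E2f7 had 3.27, 0.868 and 3.34 FPKM in SS18-SSX2 tumors and 1.24, 0.677 and 0.841 FPKM in SS18-SSX1 tumors. In both, tumors 1 and 3 with SS18-SSX2 were the highest of the 6. Mycn, a Myc family transcription factor, had 7.51, 5.88 and 12.8 FPKM in SS18-SSX2 tumors and 3.49, 9.18 and 3.36 FPKM in SS18-SSX1 tumors, and was highest of its genotype in SS18-SSX1 tumor 2. Cdkn1b, the Cdk inhibitor p27, had 33.2, 37.4 and 33.4 FPKM in SS18-SSX2 tumors and 16.1, 31.7 and 30.2 FPKM in SS18-SSX1 tumors. It was the 1 gene of these 17 whose groups did not overlap, where 8.72% of all tested genes did not (log2 fold change 0.46, SE 0.30).

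Mitosis genes, which peak after S phase, were set beside the replication genes in the same tumors. All 16 had higher means in SS18-SSX2 tumors, with a median log2 fold change of 1.00 against 0.21 for the replication genes. None of the 16 passed (limma adjusted p from 0.593), and 8 had an unadjusted p under 0.05, where 4.97% of tested genes did. Mki67, the proliferation antigen, had 78.9, 14.5 and 49.3 FPKM in SS18-SSX2 tumors and 23.3, 8.15 and 15.9 FPKM in SS18-SSX1 tumors. Top2a, a topoisomerase of S phase and mitosis, had 58.04, 17.5 and 41.5 FPKM in SS18-SSX2 tumors and 17.9, 13.6 and 28.99 FPKM in SS18-SSX1 tumors. Both were highest in SS18-SSX2 tumors 1 and 3. Averaged over each list, the mitosis genes minus the replication genes came to 0.67, 0.04 and 0.48 in SS18-SSX2 tumors and -0.62, -0.48 and -0.29 in SS18-SSX1 tumors, on the log2(FPKM + 1) scale. The 2 groups did not overlap in this difference, including tumor 2 of each genotype. The difference between the lists was not tested, and both lists were chosen with earlier results of these tumors known. Macrophage markers, which also stand for cells that may divide, averaged 3.30, 4.88 and 3.28 in SS18-SSX2 tumors and 2.23, 4.34 and 4.31 in SS18-SSX1 tumors, and their part in these levels was not tested.

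**Figure D5:**
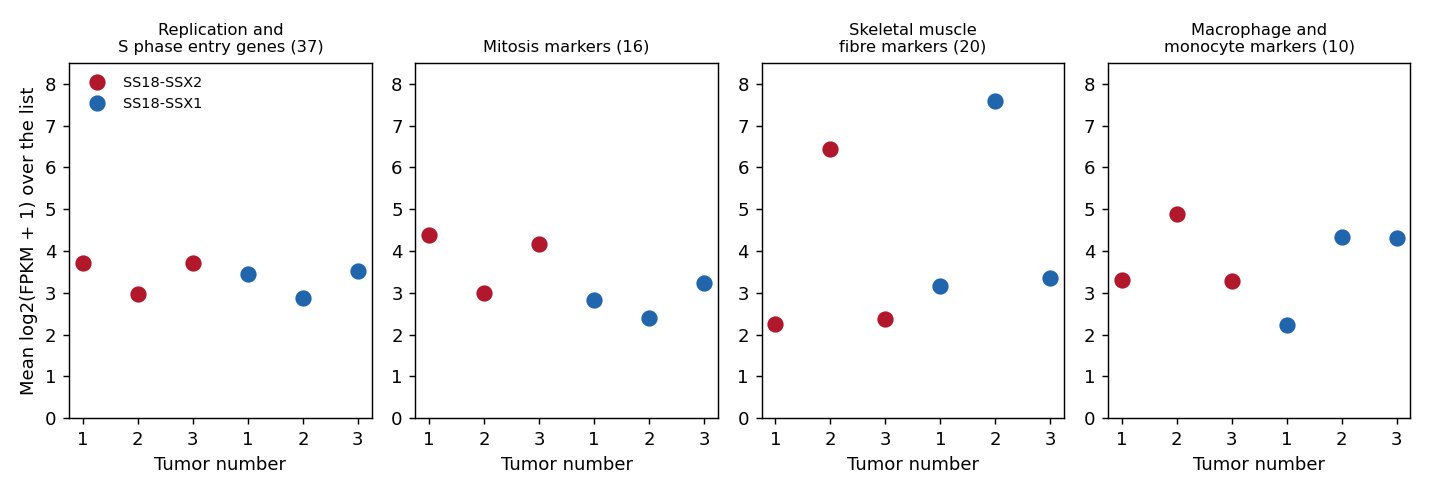
Mean log2(FPKM + 1) of 4 gene lists (panels) in each tumor (horizontal axis, tumor number), with SS18-SSX2 in red on the left and SS18-SSX1 in blue on the right. The replication genes lie between 2.87 and 3.72 in all tumors, the mitosis markers between 2.40 and 4.39, and the muscle markers are highest in tumor 2 of each genotype.

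The genotype difference was of a like size with and without the promoter letters, as a description of these genes. The 8 genes with an E2F site had a median log2 fold change of 0.18, between -0.10 and 0.49, with 6 higher in SS18-SSX2 tumors. The 22 matched genes without one had a median of 0.25, between -0.39 and 0.62, with 18 higher. They include Prim1, Rpa2 and Rrm1, which hold the shorter E2F letters. Between the highest and the lowest tumor the genes with a site ranged 2.74-fold and those without 2.56-fold, as medians.

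Exons of 12 of the 37 genes overlap exons of another gene on the opposite strand in the annotation (Ccne2, Cdc45, Fen1, Gins2, Lig1, Mcm7, Orc1, Orc6, Pole, Rfc4, Rfc5 and Tk1). How strand was treated in counting is not stated in the labels, so these 12 values may hold reads of both strands.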

How the data were processed

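RNA from 3 SS18-SSX2 and 3 SS18-SSX1 tumors was depleted of ribosomal RNA and sequenced, per the labels' protocols. The authors deposited gene-level FPKM for 17312 genes; alignment with Novoalign 2.08.03 to mm10 is named in the submitters' processing notes. How multi-mapped reads were treated was not given in the sources used here. Symbols, positions and exon overlaps came from GENCODE M21 (17029 genes matched, 283 did not). Genes at 1 FPKM or more in at least 3 tumors (13873) entered a limma fit (version 3.58.1, R 4.3.3) of log2(FPKM + 1) on genotype with no covariate, and p-values were adjusted over all tested genes by Benjamini-Hochberg at 0.05. Since FPKM are not counts, no count test was run; reads behind a value were worked out from the steps between low FPKM, of which 79.1% to 81.2% in single-exon genes were whole reads within 0.02. Intervals are 95%. Ratios were compared by an exact two-sided permutation test. The method was checked on simulated data.

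Members and lists were chosen with earlier results of these data known. From the lists of other replication and other S phase entry genes, the 4 of smallest p in each were described. Of the marker lists, Mki67 and Top2a, the most abundant mitosis genes, and the muscle gene Ckm were given by tumor. The remaining marker lists were given as means, and the members were described by role. Alternatives changed the pseudocount, the filter, the scaling, the fit and the tumors used.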

Additional observations from a re-analysis of the deposited data

How the results depend on the processing

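None of the 37 genes passed under any of the 18 alternatives, and the lowest adjusted p over them was 0.364 (Mcm10, limma with weights per tumor). Over all genes, 9 were called, against 5 with a pseudocount of 0.1, 16 with weights per tumor, 4 with the replicate block, 4 without tumor 2 of both genotypes and 1 to 3 when each tumor was left out in turn. The direction held in all settings for 19 of the 37 genes. The cause of the changes was not tested. With weights per tumor the log2 fold change was reversed for Mcm2 (0.25), Gins2 (0.25), Gins3 (0.0014), Prim1 (0.17), Rfc3 (0.14) and Ccne2 (0.12). With the muscle level as a covariate it was reversed for Orc1 (-0.011), Mcm7 (-0.024), Cdc45 (-0.094), Prim2 (-0.092), Pcna (-0.0076) and Rfc5 (-0.10). Without tumor 2 of both genotypes it was reversed for Prim1 (0.0074) and Rfc5 (-0.00066), and the ratio of Gmnn to Cdt1 was 0.0058. Leaving out each tumor in turn gave values on both sides of 0 for Orc1 (-0.11 to 0.42), Cdt1 (-0.039 to 0.50), Mcm2 (-0.50 to 0.24), Mcm7 (-0.041 to 0.57), Cdc45 (-0.12 to 0.45), Gins1 (-0.41 to 0.041), Gins2 (-0.28 to 0.25), Gins3 (-0.27 to 0.071), Pola1 (-0.18 to 0.34), Prim1 (-0.46 to 0.28), Prim2 (-0.18 to 0.37), Pold1 (-0.026 to 0.42), Pole (-0.0031 to 0.87), Pcna (-0.011 to 0.40), Rfc3 (-0.35 to 0.21), Rfc5 (-0.21 to 0.28), Rpa2 (-0.058 to 0.11) and Ccne2 (-0.66 to 0.17). It did so for the ratios of Gmnn to Cdt1 (-0.35 to 0.30), Rrm2 to Rrm1 (-0.052 to 0.32) and Pole to Pold1 (-0.21 to 0.46). In the check of the replicate numbers, deviations of same-numbered tumors correlated at 0.38, 0.31 and -0.28, and those of differently numbered tumors at -0.44 to 0.23. The 2 highest values were thus those of tumors 1 and of tumors 2, while tumors 3 went the other way, and the numbers were not taken to pair tumors. In the submitters' sample names, tumor 1 of both genotypes begins with N and a number that differs between them. Tumor 2 of both begins with A and tumor 3 of both with B, and what the letters stand for is not stated. The replicate block called 0 of the 37 genes. Of the 23 genes with known reads, low depth limits Gins1 most, with 18 reads in its lowest tumor. Orc1, Ccne1, Cdc6, Mcm10 and Gmnn had 28, 39, 45, 55 and 57 reads in theirs. Reads of the remaining genes of the set could not be worked out.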
